A study of Mesocricetus auratus with 11 samples.

Results

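The regions described here are 425 stretches of the Syrian hamster genome that were highly methylated in a transformed cell line and read as highly methylated in each library made after a DNA methyltransferase inhibitor. A stretch, called a tile, is a fixed window of 1 kb with 3 or more CpGs that had at least 10 reads in all 7 libraries of the line. Its level is the sum of methylated reads over the sum of all reads at those CpGs. A tile was a member when the mean of the 4 vehicle libraries was 85% or more and each of the 3 libraries after 5-aza-2'-deoxycytidine (5aCdR) was also at 85% or more. Of 18639 tiles, 2018 had a vehicle mean of 85% or more, and 425 of those, 21.1%, were members. The other 1593 highly methylated tiles, with at least 1 5aCdR library below the limit, are the comparison throughout. The members hold 1639 of the 155920 CpGs that met the read minimum in all 7 libraries. The vehicle and 5aCdR levels chose the members, so these levels are described without a test.

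Methylation of CpGs is copied onto each new DNA strand by the maintenance methyltransferase DNMT1 after replication. 5aCdR is a cytidine analogue that is built into DNA and traps DNA methyltransferases there, so that methylation is diluted as treated cells divide. Highly methylated DNA therefore has the most to lose, and how far single regions keep their methylation under the drug is a question often asked of such data.

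MT2 is a female line that grew from 1 colony of Syrian hamster fetal cells that benzo[a]pyrene (at 5 µg/mL) had morphologically transformed, later escaped senescence and was at an estimated passage 28. All 7 MT2 wells were seeded from 1 thawed stock. The vehicle group had 4 wells kept for 48 h in 0.05% DMSO, and the 5aCdR group had 3 wells kept for 48 h in 5 µM 5aCdR. The design calls the wells technical replicates. A p-value between them therefore reflects only how wells of this line vary. The primary group had untreated cells of 4 individual female fetuses at gestation day 13.5, in culture for under 3 days and 1 passage, with ectodermal and mesodermal cells mixed and head, viscera and limbs removed. The assay, reduced representation bisulfite sequencing, reads the ends of fragments cut at a site with a CpG, so the CpGs of a tile are often read together. The files listed 17834610 to 37595680 reads over CpGs for vehicle libraries, 36110136 to 46148127 for 5aCdR libraries and 19331056 to 37417483 for primary libraries. No assembly is named in the sources used here, and the files name no genes, so marker genes cannot be checked. Tiles are therefore given by scaffold and position as the files have them, without gene, exon or intron.

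In the libraries that chose them, the members had nearly the same mean level with and without the drug. It was 95.7% ± 0.237 (SD, n = 4) with vehicle and 95.9% ± 0.0268 (SD, n = 3) after 5aCdR. The other highly methylated tiles were at 93.4% ± 0.446 (SD, n = 4) and 78.0% ± 0.742 (SD, n = 3). Of the members, 186 had a higher mean after 5aCdR than with vehicle, 215 a lower one and 24 the same, and these 24 were read as fully methylated in all 7 libraries. The difference between the 2 means ran from -10.1 to 14.8 percentage points with a median of -0.142. Among the other tiles, 1526 of 1593 were lower after 5aCdR, with a median difference of -14.0. The vehicle libraries, for which the rule limits only the mean, were less even: 288 members (67.8%) were at 85% or more in all 4 vehicle libraries, 121 in 3 of them and 16 in 2. A quasi-binomial test across all 18639 tiles called 149 (0.799%) between 5aCdR and vehicle at an adjusted p below 0.05, 146 (0.783%) lower and 3 (0.0161%) higher after 5aCdR. It called 0 of the 425 members, with a smallest adjusted p of 0.0615. At an unadjusted p below 0.05 there were 46 members (10.8%), 33 lower and 13 higher after 5aCdR, beside 12.3% of all tiles and 50.3% of the other highly methylated tiles. With limma on the logit of the reads 1 member (0.235%) was called, beside 0.15% of all tiles. The rule used this contrast, and nothing is read from these counts. The 425 members became 682, 727 or 688 without 5aCdR replicate 1, 2 or 3, where 1 condition fewer applied.

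**Figure D1:**
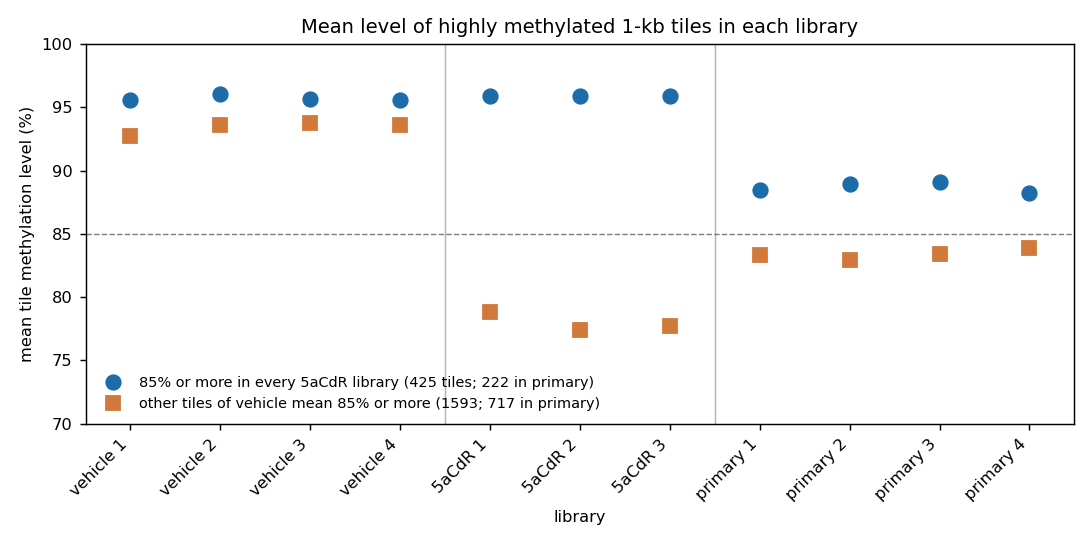
Mean tile methylation level (%, y axis from 70) in each of the 11 libraries, for the 425 members (circles) and the 1593 other tiles of vehicle mean 85% or more (squares); in primary cells 222 and 717 tiles had a level, and the dashed line is 85%. The MT2 values chose the classes; in all 4 primary libraries the members, at 88.2% to 89.1%, lay above the other tiles, at 82.9% to 83.9%.

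No single 5aCdR library set the membership. Of the 2018 highly methylated tiles, 356 reached 85% in none of the 3 5aCdR libraries, 623 in 1, 614 in 2 and 425 in all 3. The 614 tiles that missed in 1 library missed in replicate 1, 2 and 3 in 203, 213 and 198 cases. The limit cut through a continuous range of levels, and 177 members had their lowest 5aCdR library below 90% while 208 other tiles had it between 80 and 85%. Just inside lay the tile at 1738001 to 1739000 of KB708302.1, fully methylated in all 4 vehicle libraries and at 85.04%, 100% and 97.4% after 5aCdR. The tile at 751001 to 752000 of KB708382.1 was the next, at 94.2%, 96.4% and 85.05% after 5aCdR. Just outside lay the tile at 2161001 to 2162000 of KB708127.1, at 100%, 94.98% and 84.97% after 5aCdR, and that at 3635001 to 3636000 of KB708205.1, at 84.96%, 97.8% and 92.5%.

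The level of such tiles was next measured in libraries that had no part in choosing them. The choice was repeated with 1 vehicle and 1 5aCdR library left out, for each of the 12 pairs of libraries, a check added after the data were examined. The tiles chosen from the remaining libraries, 613 to 638 per pair, averaged 94.4% in the unused vehicle library and 87.1% in the unused 5aCdR library. The difference was -7.36 ± 0.320 percentage points (SD over the 3 unused 5aCdR libraries), and it was negative in 12 of 12 pairs. Tiles picked because 2 5aCdR libraries were high were thus on average lower than vehicle in the remaining one. Those below 85% there are not members, so this value does not say whether the 425 members resist the drug. The other highly methylated tiles, 1416 to 1450 per pair, averaged 90.3% and 78.6%, a difference of -11.6 ± 0.716. The chosen tiles differed by 4.28 ± 0.397 percentage points less than the others, in 12 of 12 pairs. The pairs reuse the same wells, and a well left out of 1 pair helped to choose tiles in others. Neither the 12 pairs nor the 3 5aCdR values are therefore independent, here and in the classes below. With 3 5aCdR libraries the exact two-sided sign-flip permutation test cannot go below p = 0.25, which was its value for each of these differences. Of the chosen tiles, 87.3% were at 85% or more in the unused vehicle library and 67.4% in the unused 5aCdR library. The corresponding shares of the other tiles were 74.0% and 43.0%.

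**Figure D2:**
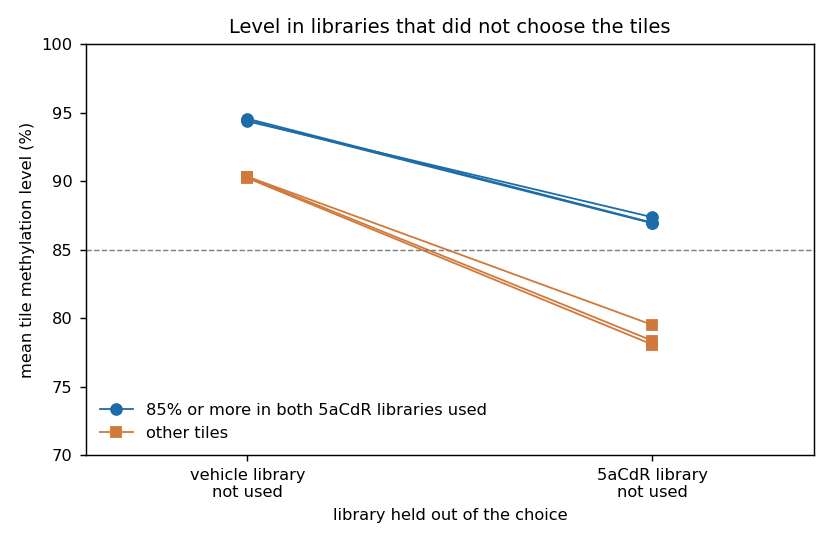
Mean tile level (%, y axis from 70) in a vehicle library (left) and a 5aCdR library (right) that did not choose the tiles, averaged over vehicle libraries, with 1 line per unused 5aCdR library; circles are tiles at 85% or more in both 5aCdR libraries used, squares the other tiles of vehicle mean 85% or more. The circles went from 94.4% on average to 87.1% and the squares from 90.3% to 78.6%.

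The vehicle level of the chosen tiles was higher, so the same comparison was made within classes of vehicle level, taken from the libraries used. At a vehicle level of 95 to 100% the chosen tiles went from 95.4% to 88.3% in unused libraries, a difference of -7.09 ± 0.441 percentage points (SD, n = 3), and the others from 94.3% to 82.1%, -12.3 ± 1.05. At 90 to 95% the differences were -6.97 ± 0.422 and -11.3 ± 0.538, from 93.9% and 89.5% in the unused vehicle library. At 85 to 90% they were -9.47 ± 2.13 and -11.1 ± 0.719, from 90.8% and 85.3%. The classes thus did not make the unused vehicle levels equal. In the lowest class the chosen tiles differed by less than the others in 9 of 12 pairs, against 12 of 12 in both higher classes (exact sign-flip permutation, p = 0.5, 0.25 and 0.25 from the lowest class up). The differences between chosen and other tiles were 1.66, 4.29 and 5.18 percentage points from the lowest class up.

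Leaving out only 1 5aCdR library gave similar levels. Tiles at 85% or more in 5aCdR replicates 2 and 3 averaged 87.5% in replicate 1, and the other highly methylated tiles 80.1%. The values were 87.0% and 78.6% in replicate 2, and 87.1% and 79.1% in replicate 3. Over the 3 libraries the chosen tiles were higher by 7.91 ± 0.462 percentage points (SD, n = 3, exact sign-flip permutation, p = 0.25, the smallest value possible). In the unused library 67.7%, 66.6% and 68.2% of the chosen tiles reached 85%, against 44.9%, 44.8% and 43.7% of the others. The median of the chosen tiles was 92.04% to 92.2%, above the mean. Among untreated wells, tiles whose 3 other vehicle libraries averaged 85% or more reached 85% in the remaining library in 76.9% to 79.6% of cases. The share was 84.1% to 88.7% for tiles with each of the 3 at 85% or more, and 64.02% to 66.2% for the rest. The mean levels of these 2 sets in the remaining vehicle library were 93.6% to 94.3% and 87.1% to 88.2%. A choice of this kind thus left a gap without the drug too. Whether the gap after 5aCdR goes beyond it was not tested.

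Single CpGs of the members were less uniform than the tile levels. Of the 1639 CpGs in members, 1212 (73.95%) were at 85% or more in every 5aCdR library, and 40 (2.44%) were below 50% in at least 1 of them. In 152 members (35.8%) every CpG was at 85% or more in all 3 libraries. The median depth was 44 reads per CpG in members and 46 in the other tiles. The tiles also hold CpGs that did not reach 10 reads in all 7 libraries and so had no part in the rule. In members there were 1333 such CpGs with a value in each group, at 84.4% with vehicle and 80.7% after 5aCdR. In the other tiles 6430 such CpGs were at 80.2% and 72.0%. The differences were -3.64 and -8.21 percentage points, from the same libraries that chose the tiles, and were not tested.

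Depth was close to that of the other tiles with vehicle and below it after 5aCdR. The ratio of median reads per tile, members over other tiles, was 1.05, 1.02, 1.02 and 1.01 in vehicle replicates 1 to 4 and 0.924, 0.842 and 0.930 in 5aCdR replicates 1 to 3. The mean log2 ratio over the 7 libraries was -0.05 ± 0.11 (SD, exact sign-flip permutation, p = 0.375). In this mean the vehicle ratios, all above 1, and the 5aCdR ratios, all below it, offset each other. The p-value therefore does not show that depth was equal within either group. The share of members was 23.6% among highly methylated tiles with fewer than 60 reads in their least deep MT2 library. It was 18.9% at 60 to 100 reads, 20.7% at 100 to 300 and 22.7% (27 of 119) from 300 reads upward, with Wilson 95% intervals that overlap. All such intervals cover counting error only. In unused libraries the chosen tiles of 300 or more reads went from 95.3% to 88.6%, a difference of -6.67 ± 0.751 percentage points (SD, n = 3). Those of fewer than 60 reads went from 93.9% to 87.4%, -6.57 ± 0.756. In both classes the chosen tiles differed by less than the others in 12 of 12 pairs.

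The members took a smaller part of the reads after 5aCdR. Of all reads on highly methylated tiles, the members held 21.1%, 21.5%, 21.9% and 21.4% in the 4 vehicle libraries and 19.7%, 19.2% and 19.9% in the 3 5aCdR libraries, and the groups did not overlap. The means were 21.5% ± 0.335 (SD, n = 4) and 19.6% ± 0.369 (SD, n = 3). The difference of -1.84 percentage points had an exact two-sided permutation p of 0.0286, the smallest that 35 splits allow. A level in each 5aCdR library entered the rule, and its spread depends on depth. The p-value is thus not free of the choice of tiles. The share was therefore also measured in the 5aCdR library not used for the choice. There it was 29.0%, 29.7% and 29.7% in replicates 1, 2 and 3, and the mean of the 4 vehicle libraries over the same tiles was 30.8%, 31.5% and 31.0%. The mean difference was -1.66 ± 0.298 percentage points (SD, n = 3, exact sign-flip permutation, p = 0.25). The 2 other 5aCdR libraries still chose these tiles, and the depth of a tile may be alike across wells. Leaving out 1 library therefore cannot separate the share of reads from the choice. When CpGs needed 20 reads, the difference of the first kind was -1.44 (exact permutation, p = 0.0571), and with at least 5 CpGs per tile it was -0.854 (p = 0.143, exact).

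CpG number differed little and the span of the CpGs more. Members had 3 CpGs in 224 of 425 cases and 5 or more in 100 (23.5%, Wilson 95% interval 19.7% to 27.8%). Of the other tiles 300 (18.8%, 17.0% to 20.8%) had 5 or more. A median of 7 CpGs per tile was covered in any of the 11 libraries in both classes. The CpGs counted for the level spanned a median of 65 bp in members and 71 bp in the other tiles, and 346 members (81.4%) and 1119 other tiles (70.2%) had them within 100 bp. The share of members was 27.3% (23.7% to 31.3%) at a span of up to 50 bp, 21.5% (19.0% to 24.3%) from there to 100 bp, 13.1% (9.64% to 17.5%) from there to 200 bp and 15.6% (11.7% to 20.4%) above. In unused libraries the chosen tiles with a span of up to 50 bp went from 94.4% to 88.4%, a difference of -6.08 ± 0.854 (SD, n = 3). Those with a span over 100 bp went from 94.2% to 86.7%, -7.53 ± 0.391. No test of span was made, because tiles are not replicates.

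**Figure D3:**
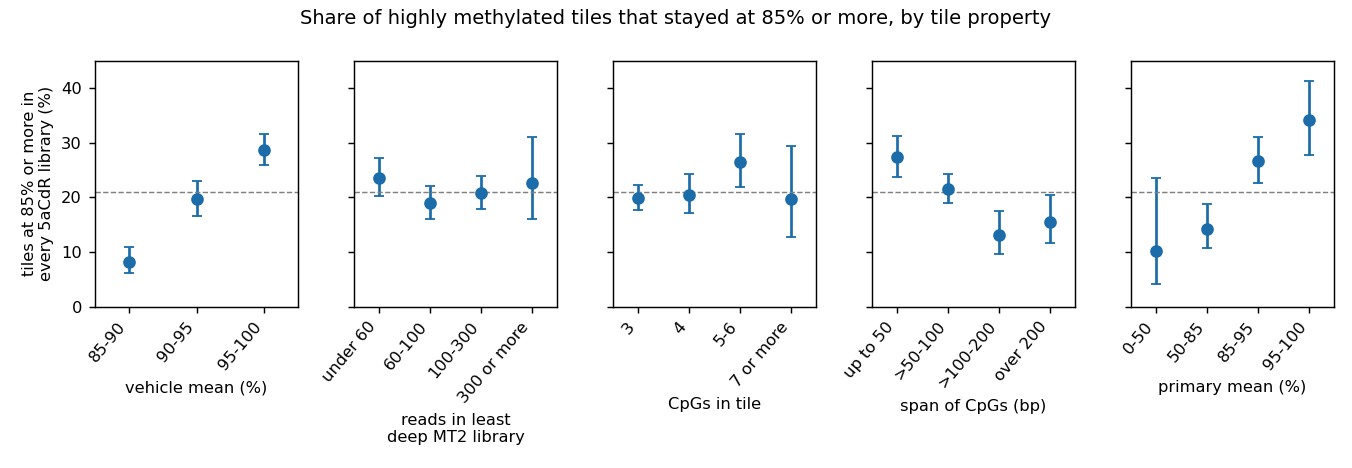
Share of highly methylated tiles (vehicle mean 85% or more) that were at 85% or more in every 5aCdR library (%, y axis), by vehicle mean, reads in the least deep MT2 library, number of CpGs, span of the CpGs and mean level in primary cells; bars are Wilson 95% intervals and the dashed line is the 21.1% of all 2018 tiles. By vehicle level, which the rule used, the share was 8.21% in the lowest class and 28.7% in the highest, and it was 34.2% at a primary level of 95% or more against 14.3% at 50 to 85%.

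Primary fetal cells took no part in the rule, and there the members were more methylated than the other tiles. A primary level could be given for 222 members (52.2%) and 717 other tiles (45.01%), those with 3 or more CpGs at 10 or more reads in all 11 libraries. The members were at 88.5%, 88.9%, 89.1% and 88.2% in primary replicates 1 to 4, and the other tiles at 83.3%, 82.9%, 83.4% and 83.9%. Every value of the members lay above every value of the others. The members averaged 88.7% ± 0.412 (SD, n = 4) and the others 83.4% ± 0.413 (SD, n = 4). The difference of 5.29 ± 0.752 percentage points was positive in 4 of 4 fetuses. An exact two-sided sign-flip permutation over the 4 libraries had p = 0.125, as low as it can go. A primary mean of 85% or more was found in 176 of the 222 members (79.3%, Wilson 95% interval 73.5% to 84.1%) and 430 of the 717 others (60.0%, 56.3% to 63.5%). All 4 primary libraries were at 85% or more in 109 members (49.1%) and 195 others (27.2%). The median depth per tile in primary libraries was 162.5 to 295.5 reads in members and 161 to 287 in the others.

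**Figure D4:**
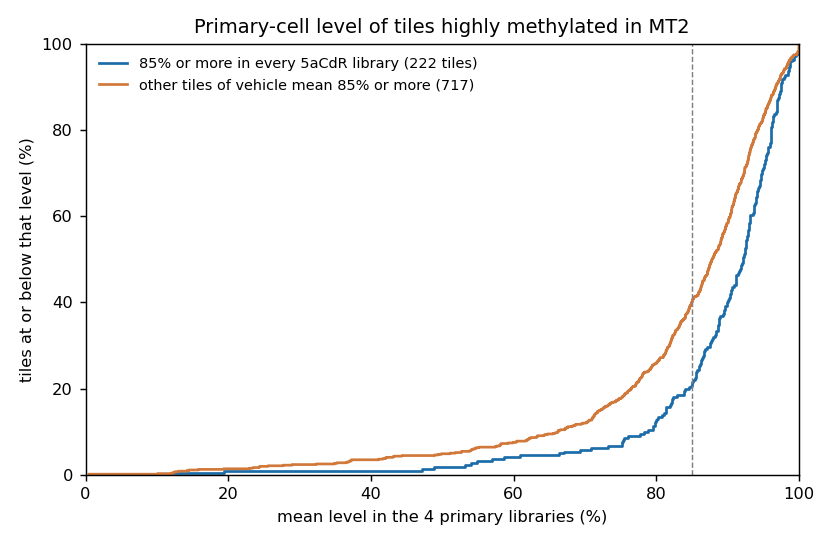
Cumulative share of tiles (%, y axis) at or below a given mean level in the 4 primary libraries (%, x axis), for 222 members and 717 other tiles of vehicle mean 85% or more; the dashed line is 85%. Fewer members than other tiles lay below any given level over most of the range, with medians of 92.1% and 87.8%.

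Because the vehicle level was also higher in members, the primary levels were compared within classes of vehicle level. At 95 to 100% with vehicle, 135 members were at 90.5% ± 0.435 (SD, n = 4) in primary cells and 296 other tiles at 86.5% ± 0.378, a difference of 3.97 ± 0.694 percentage points. At 90 to 95% the difference was 2.89 ± 1.61 between 71 and 214 tiles. Members were higher in 4 of 4 fetuses in both classes (exact sign-flip permutation, p = 0.125 in each). At 85 to 90%, with 16 members, the difference was 2.78 ± 5.76, with 2 of 4 fetuses in each direction (exact permutation, p = 0.5). Thus the difference of 5.29 percentage points over all classes was between 2.78 and 3.97 within them. Such classes did not make vehicle levels equal in unused libraries. There the chosen and other tiles were at 90.8% and 85.3%, 93.9% and 89.5%, and 95.4% and 94.3% from the lowest class up. The primary differences within classes are therefore not free of a difference in vehicle level. The share of members among highly methylated tiles was 10.3% (4 of 39) at a primary level below 50%, 14.3% at 50 to 85%, 26.7% at 85 to 95% and 34.2% at 95% or more.

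With all libraries and the main settings, the share of members called different from primary cells was close to that of the other highly methylated tiles. The quasi-binomial test of MT2 vehicle against primary cells called 2117 of 10178 tiles (20.8%), 870 (8.55%) higher and 1247 (12.3%) lower in MT2. It called 54 of the 223 members tested (24.2%, Wilson 95% interval 19.1% to 30.2%) and 173 of 733 other tiles (23.6%, 20.7% to 26.8%). The vehicle libraries are wells of the same line, while the primary libraries are separate fetuses. The calls therefore compare this line with these fetuses and do not extend to other transformed lines. Of the 54 members 53 were higher in MT2, and of the 173 other tiles 167, a direction that a vehicle mean of 85% or more largely fixes. The median difference was 14.5 percentage points in the 53 members, 13 of which differed by 25 or more, and 22.5 in the 167 other tiles, of which 69 did. The count of 54 members moved with single libraries and with the test. It was 26 of 227 (11.5%) without vehicle replicate 1 and 32 of 233 (13.7%) without vehicle replicate 4. There the share of other highly methylated tiles called was 18.8% and 19.2%, and that of all tiles 15.8% and 16.4%. Without vehicle replicates 2 and 3 the shares were 15.4% and 19.6% of members, beside 19.6% and 19.0% of other tiles. With at least 5 CpGs per tile 14.6% of members and 26.7% of other tiles were called. The count was 86 of 344 members (25%) without 5aCdR replicate 2, where more tiles were members. With limma on the logit of the reads 29 members (13.0%) were called, beside 14.6% of the other tiles and 10.1% of all tiles.

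The 6 members of lowest primary level had primary means of 12.1% to 54.0%. They were picked by that level and the rule sets a high MT2 level, so a gap between the groups was largely fixed. A primary mean below 50% was found in 4 of 222 members (1.80%) and 35 of 717 other tiles (4.88%). On KB708226.1, the tile at 3090001 to 3091000 was at 6.52%, 8.10%, 4.89% and 29.0% in the 4 primary libraries. It was at 92.8%, 91.5%, 82.7% and 94.4% with vehicle and at 98.9%, 96.6% and 91.1% after 5aCdR, from 4 CpGs within 46 bp and at least 342 reads per MT2 library. Every MT2 library lay more than 50 points above every primary library there. The tile of KB708200.1 at 356001 to 357000 was at 25.8%, 4.78%, 33.7% and 13.6% in primary cells. It was at 92.3%, 80.4%, 100% and 91.3% with vehicle and at 87.7%, 96.6% and 100% after 5aCdR, again without overlap between MT2 and primary libraries. In the tile at 12666001 to 12667000 of KB708147.1 the primary libraries were between 16.4% and 70.9% and the MT2 libraries between 86.8% and 100%. The other 3, on KB708220.1, KB708161.1 and APMT01235871.1, had primary means of 48.8%, 53.3% and 54.0% with an SD of 23.2, 23.2 and 20.8 (n = 4). In the first and second of these 3 a vehicle library, at 67.7% and 70.2%, lay below the highest primary library, at 77.0% and 80.2%. The 2 members of highest primary level, at 19385001 to 19386000 of KB708128.1 and 11452001 to 11453000 of KB708149.1, were read as fully methylated in all 4 primary libraries. They were at 98.7% ± 2.18 and 94.6% ± 4.83 (SD, n = 3) after 5aCdR.

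**Figure D5:**
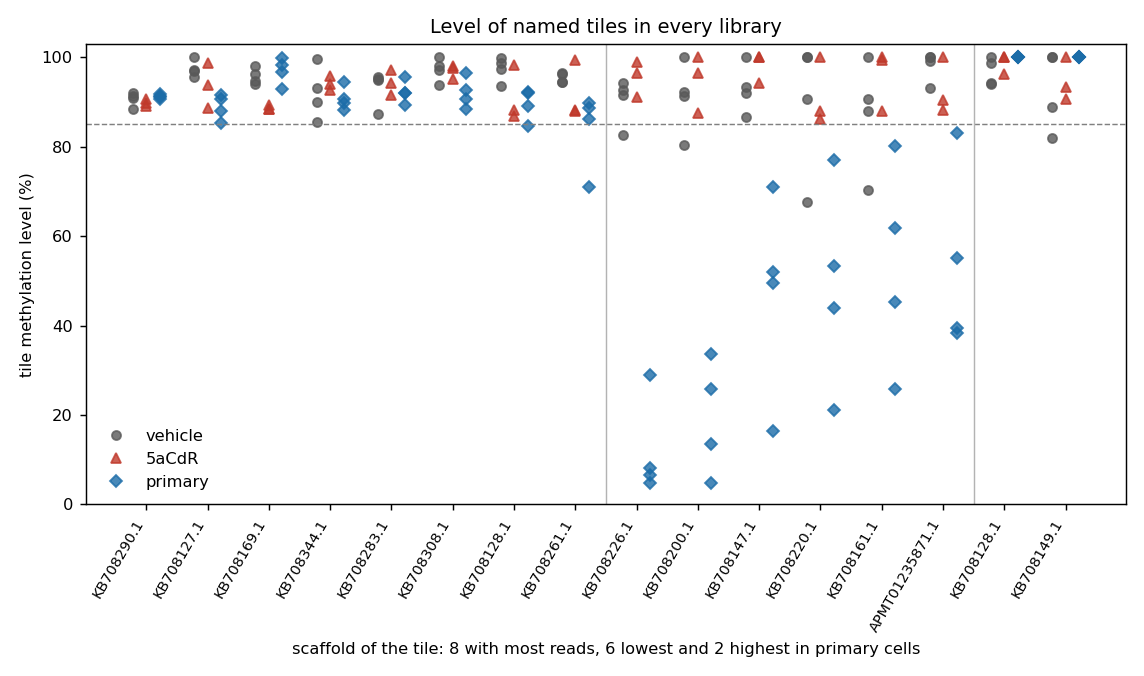
Methylation level (%, y axis) in every vehicle (circles), 5aCdR (triangles) and primary (diamonds) library of the 8 members with the most reads, the 6 of lowest and the 2 of highest primary level, from left to right and named by scaffold. The primary libraries spread from 4.78% to 83.0% in the 6 members of lowest primary level, while the 5aCdR libraries of all 16 tiles lie above the dashed line at 85%, as the rule demands.

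In the 8 most deeply read members the levels rest on the most reads. The deepest, at 3003001 to 3004000 of KB708290.1, had 3 CpGs within 20 bp and 3727 to 7504 reads per MT2 library. It was at 92.1%, 91.4%, 88.5% and 91.0% with vehicle, at 90.8%, 89.2% and 89.8% after 5aCdR and at 90.7% to 91.8% in primary cells, so that all 3 groups overlapped. One CpG, at 3003800, held 92.7% of its MT2 reads and was at 91.2% to 92.9% after 5aCdR. The CpG at 3003797 was at 38.0%, 47.8% and 39.5% after 5aCdR and at 39.7% to 73.8% with vehicle. With an unweighted mean over the 3 CpGs this tile was at 70.9% after 5aCdR and was no member. On KB708308.1, the tile at 152001 to 153000 had the highest mean of the 8 after 5aCdR, at 98.1%, 97.7% and 95.3%, with 97.1%, 98.1%, 100% and 93.9% with vehicle. On KB708169.1, the tile at 4970001 to 4971000 was at 96.4%, 97.99%, 94.01% and 94.8% with vehicle and at 88.4%, 89.3% and 88.4% after 5aCdR. There each 5aCdR library lay below each vehicle library, with 751 to 2285 reads per library. A tile can thus meet the rule and still have a lower level after the drug in every well. The quasi-binomial test did not call this tile between 5aCdR and vehicle (adjusted p = 0.0615, the smallest of the members). In the tile at 31332001 to 31333000 of KB708128.1 the 5aCdR libraries were apart from each other, at 87.0%, 88.1% and 98.3%, and the vehicle libraries were at 93.6% to 99.8%. The tile at 3576001 to 3577000 of KB708261.1 was likewise split, at 88.1%, 99.3% and 88.1% after 5aCdR and 94.4% to 96.4% with vehicle. The remaining 3, on KB708127.1, KB708344.1 and KB708283.1, had mean levels of 93.7%, 94.3% and 94.3% after 5aCdR and 97.4%, 92.1% and 93.3% with vehicle.

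The members with the most CpGs had 8 to 10 of them. The tile at 7033001 to 7034000 of KB708240.1 had 10 CpGs over 242 bp and was at 95.7%, 100%, 99.7% and 99.6% with vehicle and 100%, 93.3% and 96.1% after 5aCdR. The tile at 1462001 to 1463000 of KB708269.1 had 9 CpGs and was at 91.9% ± 6.36 (SD, n = 4) with vehicle, 94.3% ± 4.30 (SD, n = 3) after 5aCdR and 92.6% ± 4.23 (SD, n = 4) in primary cells. Those at 1271001 to 1272000 of KB708344.1 and 847001 to 848000 of KB708129.1 had 8 CpGs each and were at 94.3% ± 1.57 and 96.4% ± 4.28 (SD, n = 3) after 5aCdR. In the 3 of these 4 that had a primary level the groups overlapped.

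Members were spread over 169 of the 311 scaffolds that held a highly methylated tile and were about as frequent beside other members as beside other tiles of the same level. Of the 51 highly methylated tiles with a member within 10 kb, 10 were members (19.6%, Wilson 95% interval 11.02% to 32.5%). Of the 165 with another kind of highly methylated tile within 10 kb, 35 were members (21.2%, 15.7% to 28.1%). Within 100 kb the shares were 22.1% of 262 and 21.7% of 697 tiles, and within 1 kb 2 of 7 and 5 of 29. Each share within 10 and 100 kb was near the 21.1% of all highly methylated tiles. With an unweighted mean over CpGs the shares within 10 kb were 27.9% of 43 tiles and 14.8%, and with a limit of 90% they were 4 of 14 tiles and 7.30%. No run of neighbouring members was longer than 2 tiles, and there were 5 such pairs within 10 kb. On KB708147.1, the adjoining tiles at 4586001 and 4587001 were at 100% in all 3 5aCdR libraries and at 97.7%, 98.7% and 96.0%. On KB708217.1, the tiles at 5688001 and 5692001 had means of 86.4% ± 1.17 and 100% after 5aCdR (SD, n = 3). On KB708308.1, those at 1220001 and 1225001 had means of 90.6% ± 3.80 and 99.9% ± 0.248. KB708147.1 had the most members, 24 of its 130 highly methylated tiles (18.5%). Among the 20 scaffolds with 20 or more highly methylated tiles the share ran from 0% to 28.6% with a median of 20.9%. Tiles around members were on average lower after 5aCdR. The 55 tested tiles of vehicle mean 50 to 85% within 10 kb of a member were at 67.3% with vehicle and 58.8% after 5aCdR. The 231 within 10 kb of another highly methylated tile were at 68.3% and 58.0%. Of all 209 tested tiles around members, 128 (61.2%) were lower, with a median difference of -1.51 percentage points. Around other highly methylated tiles 568 of 847 (67.1%) were lower, with a median of -2.54. These neighbour levels come from the libraries that chose the tiles and were not tested.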

How the data were processed

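The labels' protocols give 100 ng of genomic DNA and a commercial kit for each bisulfite library. The submitters' processing notes name Bismark 0.22.1, Bowtie2, Trim Galore 0.5.0, methylKit 1.10.0, R 3.6.1 and bcl2fastq 2.20.0.42, without settings. The protocol text mentions 4 plates with 5aCdR, of which 3 libraries were analysed. Per the file headers, the deposited coverage is a read count on 1 strand at each CpG, listed from 10 reads upward, and the deposited C and T levels are a percent of those reads. Removal of PCR copies is not mentioned in the sources used here, so reads may not be separate molecules.

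Coverage was multiplied by the percent of C and rounded to give methylated reads, and both strands of a CpG were summed. A strand under 10 reads is missing from the sum. The tile test was a quasi-binomial regression whose dispersion was moderated across tiles with limma 3.58.1 (R 4.3.3) and kept at 1 or more. Its prior came from tiles with at least 10 methylated and 10 unmethylated reads, and p-values were adjusted by Benjamini-Hochberg over all tiles. It was tried on simulated data. Single values were compared by exact permutation over libraries (Python 3.11.15). Same-numbered libraries did not deviate together. The members, tests and rules were chosen with earlier results of these data known. Tiles named are the 8 members with most reads in their least deep MT2 library, the 6 lowest and 2 highest in primary cells, 3 of the 5 pairs of members within 10 kb (most members, then shortest span), the 4 with most CpGs, and 2 on each side of the limit. Alternatives changed the read minimum, CpG minimum, tile size, limit, weighting and test, used the replicate number as a block, or left out each library in turn. Choices without a vehicle library, vehicle classes of the primary comparison, shifted tiles and the removal of 1 scaffold were added after the data were examined. No sequence is printed, since no genome of this assembly was used here.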

Additional observations from a re-analysis of the deposited data

Results flagged for a closer look

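Among 52 groups of 4 libraries examined, 11 had 1 library whose distance to its nearest neighbour took up more of the range than Dixon's 95% critical value of 0.829 allows. Chance flags about 1 group in 20, and levels that end at 100% leave 3 libraries close together in several groups. In the members at 5692001 of KB708217.1 and 1225001 of KB708308.1, 1 vehicle library was at 92.2% and 89.8% and the other 3 at 100%. At 7033001 of KB708240.1 and 1 of APMT01235871.1 the lowest vehicle library was at 95.7% and 93.0%, with the next at 99.6% and 99.2%. At 3263001 of KB708283.1 it was at 87.3% and the next at 94.9%, and at 1462001 of KB708269.1 at 82.4% and the next at 94.1%. At 4587001 of KB708147.1 it was at 78.3% and the next at 96.3%. Of the 2 tiles just outside the limit, that at 2161001 of KB708127.1 had a vehicle library at 91.0% with the next at 98.95%, and that at 3635001 of KB708205.1 had one at 79.3% with the next at 92.5%. In primary cells, the tile at 3090001 of KB708226.1 had 1 fetus at 29.0% and the others at 8.10% or less. The mean level of the members in vehicle replicate 2 was 96.1%, and the other 3 vehicle libraries lay between 95.599% and 95.618%.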

How the results depend on the processing

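The members in primary cells stayed above the other tiles under all 25 alternatives, by 2.78 to 7.21 percentage points. In unused libraries the chosen tiles had a negative difference under all 14 alternatives, from -8.78 to -6.31, smaller in size than that of the other tiles by 2.56 to 4.58. Values that moved follow. The cause of a move was not tested, and in some settings fewer tiles or libraries entered. The count of members was 148 with at least 20 reads, 100 with at least 5 CpGs, 660 and 228 with limits of 80% and 90%, 888 with the mean of the 5aCdR libraries, and 466 to 727 with 1 library left out. The log2 ratio of reads per tile was 0.049 with at least 20 reads, a reversal, -0.13 with 5 CpGs and -0.19 with 90%. The difference in the share of reads was -1.44 with at least 20 reads, -0.854 with 5 CpGs, -1.87 with replicate numbers as a block (exact p = 0.25, the smallest possible for 3 pairs), and -2.55 to -1.88 with 1 library left out, where p could not go below 0.0667 or 0.1. Members called against primary cells were 21 of 83 (25.3%) with 20 reads, beside 34.5% of all tiles, and 7 of 48 (14.6%) with 5 CpGs, beside 14.5%. They were 84 of 342 (24.6%) and 24 of 110 (21.8%) with 80% and 90%, and 102 of 429 (23.8%) with the mean, beside 20.8%. They were 29 of 223 (13.0%) with limma, beside 10.1%. With 1 library left out they were 26 of 227 (11.5%) to 86 of 344 (25%), beside 15.8% and 20.8% of all tiles. Members called between 5aCdR and vehicle were 2 of 148 (1.35%) with 20 reads, beside 2.67% of all tiles. They were 1 of 445 (0.225%) with an unweighted mean over CpGs, 3 of 660 (0.455%) with 80% and 5 of 888 (0.563%) with the mean, beside 0.799%. With limma they were 1 of 425 (0.235%), beside 0.15%. With 1 library left out the count was 0, beside 0.192% to 0.597% of all tiles. The share of members near members within 10 kb was 0% with 20 reads and with 5 CpGs, from 2 and 1 tiles, 52.2% with the mean (51.4% near other tiles), and 15.4% to 34.0% with 1 library left out. The share of members with 5 or more CpGs was 19.6% with the mean and 19.6% to 25.3% with 1 library left out; with at least 5 CpGs it cannot be given. Levels of named tiles after 5aCdR stayed within 1 SD in 283 of 290 alternatives. Of the 7 that moved, 6 stayed above 85%, and the deepest member, on KB708290.1, was at 70.9% with an unweighted mean. With the block 45 of 223 members (20.2%) were called against primary cells, beside 19.3% of all tiles. Between 5aCdR and vehicle 0 of 425 were, beside 0.317% of all tiles. Same-numbered libraries are not shown to be pairs.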

Other observations

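Some scaffolds held many members for their number of highly methylated tiles and were picked after their values were seen. On KB708224.1, 9 of 16 highly methylated tiles were members (56.2%, Wilson 95% interval 33.2% to 76.9%). On KB708308.1, 7 of 13 were (53.8%, 29.1% to 76.8%). These 2 are among 311 scaffolds, and no test was made. On small contigs with names that start with APMT, 19 of 68 highly methylated tiles were members (27.9%, 18.7% to 39.6%).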
